A study of Mus musculus with 2 samples.

Results

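Myl10 encodes a regulatory light chain of myosin, and it is described here across the cell types of mouse bone marrow. It is 1 of 31053 genes in the count tables. It was chosen because its transcripts led the stem and progenitor cells of these same data, so its levels across cell types are given as a description and no test is made of them. A barcode counted as a cell when it held at least 1000 unique molecular identifiers (UMIs, each counted as 1 captured RNA molecule) and at least 500 genes, and when no more than 10% of its UMIs were mitochondrial.

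The study asked what gut microbiota from young donors do in the marrow of aged recipients. FMT-young is marrow of aged C57BL/6J mice given young gut microbiota, and FMT-aged is marrow of aged C57BL/6J mice given aged gut microbiota, so all recipients were aged and all received a transplant. There was 1 library in each group, and the labels give neither the number of animals in a library nor the ages of donors and recipients. Both libraries were mixed from 1 part whole marrow, 1 part lineage-negative cells and 4 parts lineage-negative Kit-positive cells, which sets the shares of cell types, and were made with the 10x Genomics 3′ v3 kit. With 1 library per group no test between the groups was possible, and every interval below is a 95% interval that covers counting error only.

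Myosin II is the motor that pulls on actin filaments, and each of its heavy chains carries an essential and a regulatory light chain at its neck. Kinases such as myosin light chain kinase phosphorylate the regulatory chain and raise the motor's activity, and a phosphatase reverses this. RefSeq lists Myl10 under the older names PLRLC and Mylc2pl, and PLRLC stands for precursor lymphocyte-specific regulatory light chain. Haematopoietic stem cells lie at the root of the marrow's lineages and give rise to multipotent progenitors, which become primed for lymphoid or myeloid fates before they commit.

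Myl10 (ENSMUSG00000005474) lies on the plus strand at chr5:136693146-136701094 in GRCm38, a span of 7949 bases. GENCODE lists 6 transcripts for it, 4 of them protein coding, with 3 to 7 exons. No other annotated gene overlaps it. Of the 876 different words of 31 bases in the last 500 bases of its transcripts, where a 3′ kit reads, 0 occur in transcripts of another gene, so its UMIs are not shared with a near-identical copy in this annotation. The sequence before a transcription start is shown because the gene is so unevenly used across cell types. RefSeq lists 3 starts, and the one at the GENCODE start of the gene was taken. Which start these cells use was not tested. The window is the 250 bases upstream of it, chr5:136692896-136693145 on the plus strand of GRCm38.p6, with matches to 3 short motifs in capitals.
Myl10 promoter: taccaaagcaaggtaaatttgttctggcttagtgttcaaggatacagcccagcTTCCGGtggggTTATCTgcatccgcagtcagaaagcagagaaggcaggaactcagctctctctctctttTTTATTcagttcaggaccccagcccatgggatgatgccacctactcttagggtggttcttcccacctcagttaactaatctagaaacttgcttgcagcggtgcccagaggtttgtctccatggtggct

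The capitals mark, in order, CCGGAA on the minus strand, named here for ETS factors and 197 bases before the start, AGATAA on the minus strand, named for GATA factors and 186 bases before it, and TTTATT on the plus strand, named for HOX factors and 128 bases before it. Both strands were searched, and the matches do not overlap. CCGGAA occurs in 12.03%, AGATAA in 9.99% and TTTATT in 18.1% of the 32851 RefSeq promoter windows of this length. The letters CAGCTG of an E-box (13.001% of windows), TGTGGT of RUNX factors (14.05%), TGACAG of MEIS factors (15.9%) and TATAAA of a TATA element (12.4%) are not in this window. The window holds 49.6% G and C, against a median of 52.4% over all windows, and 3 CpG dinucleotides, against a median of 6.

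After removal of likely doublets, FMT-young had 10793 cells with a median of 10796 UMIs and FMT-aged had 10320 cells with a median of 11205.5. Of the kept cells, 32 barcodes (0.296% of FMT-young and 0.310% of FMT-aged) occurred in both libraries. FMT-young held 2837 Myl10 UMIs in 1103 cells (10.2% of cells) and FMT-aged held 6705 in 1712 cells (16.6%). Barcodes with fewer than 100 UMIs, which hold mostly RNA free in the suspension, contained 18.04 Myl10 UMIs per 1000000 UMIs (CPM; 15.3 to 21.2) in FMT-young and 41.7 (37.3 to 46.6) in FMT-aged. These values are close to the 18.2 CPM of all kept FMT-young cells and the 43.3 CPM of all kept FMT-aged cells. As a low baseline among deep cells, a cluster of plasma cells led by Igha held 4 Myl10 UMIs in 211 FMT-young cells and 7 in 358 FMT-aged cells. This is 1.35 and 1.29 CPM, and 1.90% and 0.838% of its cells had a UMI at median depths of 13382 and 14702.5 UMIs. Another cluster named plasma, number 12, led by Fcnb and Igkv1-117, was shallower, with medians of 3988.5 and 3741.5 UMIs. It had 9.19 CPM (6.00 to 13.5) in 576 FMT-young cells and 27.4 CPM (10.0 to 59.6) in 56 FMT-aged cells. The baseline of the Igha-led cluster therefore does not cover shallow cells.

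Myl10 was highest in the cluster of stem and multipotent progenitor-like cells, called the stem class below. There it reached 394 CPM (376 to 414) in FMT-young and 702 CPM (679 to 725) in FMT-aged, from 1678 UMIs in 567 cells and 3650 UMIs in 677 cells. All other cells together had 7.66 CPM in FMT-young and 20.4 CPM in FMT-aged, so the stem class stood 5.68 and 5.10 above them on the log2 scale. The class made up 5.25% of FMT-young and 6.56% of FMT-aged cells but held 59.1% and 54.4% of all Myl10 UMIs in cells.

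The stem class took its label from a list of 14 marker genes, so their levels describe the class and do not test the label. Of the 14, 13 met the naming limits, in at least 10% of its cells and at least 1.5 times higher there than elsewhere. 4 were among its 10 leading genes, which included Mecom, Hlf, Nkx2-3, Trim47, Mmrn1, Myl10 itself, Procr, Pdzk1ip1 and Stxbp4. Hlf, a transcription factor of stem cells, stood at 451 CPM in the FMT-young stem class against 9.07 CPM in the other FMT-young cells, and at 418 against 10.7 CPM in FMT-aged. Mecom, a transcription factor that maintains stem cells, stood at 172 against 2.24 CPM in FMT-young and at 180 against 3.77 CPM in FMT-aged. Markers of other cell types were also present. The 7 markers of granulocyte-monocyte progenitors summed to 1319 CPM in the FMT-young and 1248 CPM in the FMT-aged stem class, all of them detected, the 12 of neutrophils to 426 and 211 CPM and the 11 of monocytes to 850 and 419 CPM. Their part in the Myl10 values was not tested.

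**Figure D1:**
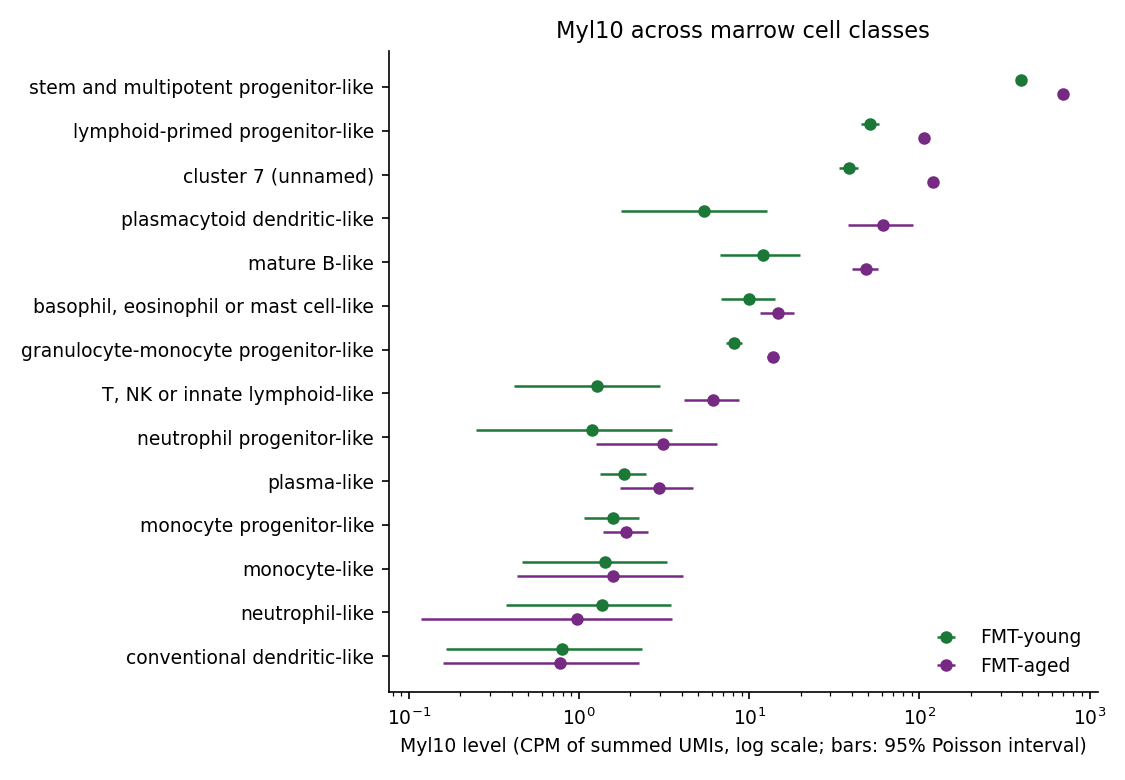
Myl10 level in CPM of the summed UMIs of a class, on a log axis, in 13 named classes with at least 50 cells in each library and in cluster 7, with exact Poisson 95% intervals. FMT-young points (green) stand above FMT-aged points (purple) in each row. The stem and multipotent progenitor-like class is highest in both libraries, at 394 and 702 CPM, and monocyte-like, neutrophil-like and conventional dendritic-like cells lie near 1 CPM.

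Among 13 named classes with at least 50 cells in each library, the lymphoid-primed progenitor-like class came second in both, with 51.3 CPM (45.1 to 58.1) in FMT-young and 107 CPM (99.95 to 114) in FMT-aged. These cells, cluster 15, are led by Dntt, the template-independent DNA polymerase of early lymphoid cells, and also by genes of dividing cells such as Cenpf and Aspm. An unnamed cluster, number 7, had similar levels, 38.4 CPM in FMT-young and 120 CPM in FMT-aged. It is led by Dntt, by the receptor gene Flt3 and by Cd34, a surface protein of early progenitors, and it stayed unnamed because it held as many markers of another type as of its own among its leading genes. The intervals of the stem class and the lymphoid-primed class did not overlap each other or those of any later class in either library.

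Granulocyte-monocyte progenitor-like cells, which express the granule genes Mpo and Elane, had 8.17 CPM (7.34 to 9.06) in FMT-young and 13.8 CPM (12.7 to 14.9) in FMT-aged. Basophil, eosinophil or mast cell-like cells had 9.97 CPM (6.78 to 14.2) and 14.7 CPM (11.5 to 18.3), and the intervals of these classes overlapped in each library. In granulocyte-monocyte progenitor-like cells 12.8% of FMT-young and 21.0% of FMT-aged cells had a Myl10 UMI, at median depths of 21022 and 24772 UMIs. Thinned to 2000 UMIs a cell, which left out 347 and 110 cells, these shares were 2.26% (1.64 to 3.03) and 3.15% (2.43 to 4.00). This class pools clusters 0, 3 and 6. Cluster 3 is shallow and held 345 and 110 of the cells left out. It had 17.6 CPM in FMT-young and 35.1 CPM in FMT-aged, near the free RNA levels of 18.04 and 41.7 CPM. Clusters 0 and 6 had 7.95 and 7.28 CPM in FMT-young, and 12.7 and 12.6 CPM in FMT-aged. The thinned share was highest in cluster 3 in both libraries, at 5.16% in FMT-young against 2.16% and 1.14%. How much of the class shares was free RNA was not tested. Thinned to the same depth, the Igha-led plasma cluster gave 0 of 209 FMT-young cells, with an exact binomial upper bound of 1.75%, and 1 of 353 FMT-aged cells.

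The monocyte, neutrophil and conventional dendritic classes were lowest. Monocyte progenitor-like cells had 1.58 CPM in FMT-young and 1.89 CPM in FMT-aged, monocyte-like cells 1.41 and 1.59 CPM, neutrophil-like cells 1.36 and 0.968 CPM, and conventional dendritic-like cells 0.797 and 0.767 CPM. From the plasma-like class downwards the intervals of neighbouring classes overlapped in both libraries, so their order is not resolved at this depth. The monocyte progenitor-like, monocyte-like, neutrophil-like and conventional dendritic-like levels lie below those of the barcodes with fewer than 100 UMIs. They also lie near the Igha-led plasma cluster, and they are read as background.

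3 classes had their Myl10 UMIs in a handful of cells. The mature B-like class had 11.99 CPM (6.71 to 19.8) in FMT-young and 48.2 CPM (40.2 to 57.4) in FMT-aged, and in its cluster 20, 3 of 197 FMT-young cells held 14 UMIs, as 10, 3 and 1, and 21 of 193 FMT-aged cells held 124, with 24 in the highest cell. Every one of those 24 cells also had UMIs of Vpreb1 and Igll1, which encode the surrogate light chain of developing B cells, and of Ighm, and 2 of the 3 FMT-young and 19 of the 21 FMT-aged cells had Dntt. Plasmacytoid dendritic-like cells had 5.41 CPM (1.76 to 12.6) in FMT-young and 60.7 CPM (38.1 to 91.9) in FMT-aged, where mature B-like and plasmacytoid dendritic-like intervals overlapped. Of them, 4 of 141 FMT-young cells held 5 UMIs and 5 of 58 FMT-aged cells held 22, and all 9 had UMIs of Siglech, a receptor of those cells. In cluster 23 of the T, NK or innate lymphoid-like class, 0 of 119 FMT-young cells and 3 of 156 FMT-aged cells had any, as 10, 6 and 5. Those 3 cells had UMIs of both Cd3e and Kit, and 2 of them had Hlf, a stem marker. In the macrophage-like class 2 of 106 FMT-young cells held 10 UMIs and 0 of 34 FMT-aged cells had one, with an exact binomial upper bound of 10.3% of cells, and with fewer than 50 FMT-aged cells it was not compared.

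Within the stem class most cells carried Myl10. A UMI was found in 74.8% (71.0 to 78.3) of FMT-young cells and 88.8% (86.2 to 91.1) of FMT-aged cells, at similar median depths of 6960 and 6867 UMIs. Thinned to 2000 UMIs a cell, the shares were 46.3% (42.2 to 50.6) and 65.7% (62.0 to 69.3). The median cell had 2 UMIs in FMT-young (quartiles 0 and 4, highest 27) and 4 in FMT-aged (quartiles 2 and 8, highest 33). A Poisson spread around the class mean, with each cell's own depth, would leave 9.62% of FMT-young and 2.47% of FMT-aged cells without a UMI, whereas 25.2% and 11.2% had none. The tenth of cells with the most Myl10 UMIs held 36.6% of the class's Myl10 in FMT-young and 30.4% in FMT-aged, so the transcript was spread over many cells.

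**Figure D2:**
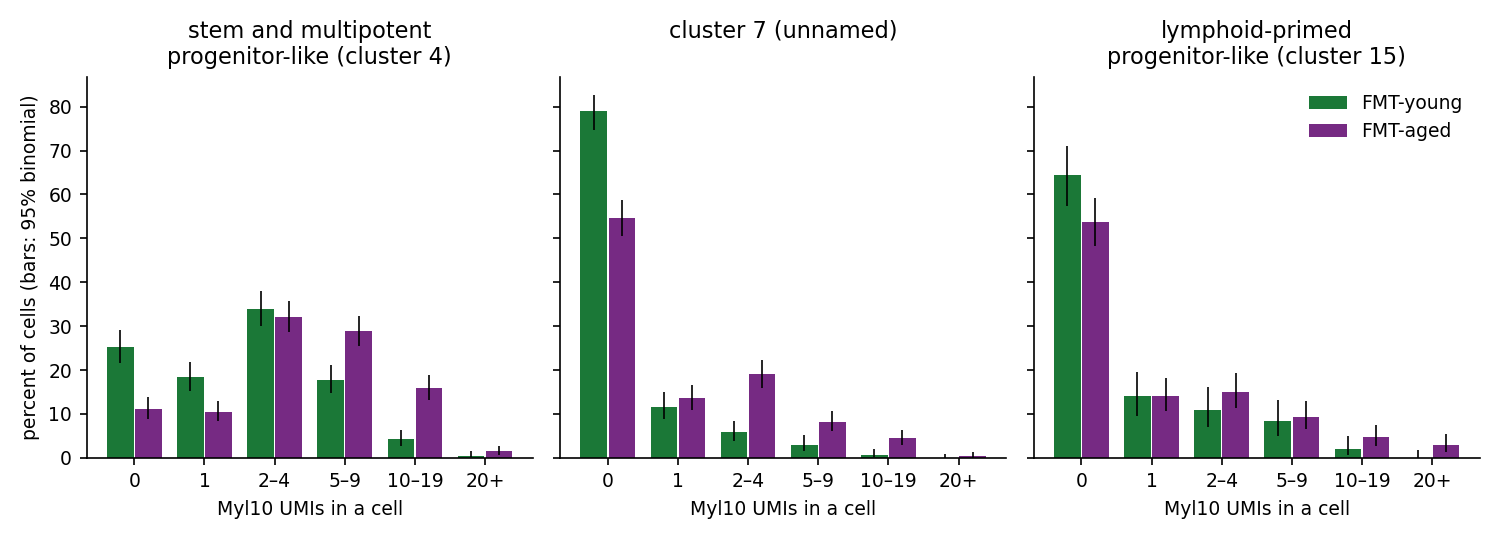
Percent of cells of a library by their number of Myl10 UMIs, in the stem and multipotent progenitor-like class, in cluster 7 and in the lymphoid-primed progenitor-like class, with exact binomial 95% intervals. FMT-young bars (green) stand left of FMT-aged bars (purple). In the stem class 4.23% of FMT-young and 15.95% of FMT-aged cells had 10 to 19 UMIs.

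Cluster 7 and the lymphoid-primed class looked different from the stem class cell by cell. In cluster 7 no Myl10 UMI was found in 78.9% of FMT-young and 54.6% of FMT-aged cells, although these cells are deeper than stem class cells, with medians of 14921 and 14725 UMIs. The tenth of its cells with the most UMIs held 81.8% of its Myl10 in FMT-young and 58.3% in FMT-aged. In the lymphoid-primed class 64.5% of FMT-young and 53.8% of FMT-aged cells had none, while single cells reached 14 UMIs in FMT-young and 37 in FMT-aged, the highest count of any cell in either library. Intermediate class levels thus combined many cells without a UMI and few with many.

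A finer clustering placed all FMT-young and all but 4 FMT-aged cells of the stem class in 2 parts. The smaller part (191 FMT-young and 157 FMT-aged cells), led by the stem-associated genes Trim47, Mmrn1, Clec1a and Pdzk1ip1, had 574 CPM (530 to 620) in FMT-young and 1071 CPM (1007 to 1139) in FMT-aged. The larger part had 331 CPM (311 to 351) and 620 CPM (597 to 645). Myl10 was itself among the clustering genes, so the difference between the parts is partly built in and is only a description.

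Cells were also placed by their transcripts into gates, without clusters or Myl10, each cell taking the first gate it met. The HSC gate asked for at least 2 of 8 stem cell genes, no Flt3, Dntt, Cd79a or Cd3e, and at most 3 UMIs of the granule genes Mpo, Elane and Prtn3. Its 89 FMT-young cells had 406 CPM (354 to 464) and its 105 FMT-aged cells 654 CPM (591 to 722), and 80.9% of them fell in the stem class and 16.5% in the basophil, eosinophil or mast cell-like class. The MPP gate, for multipotent progenitors, had 218 CPM (153 to 302) in 26 FMT-young cells and 264 CPM (202 to 340) in 39 FMT-aged cells, and 47.7% of its cells fell in the stem class and 46.2% in the basophil, eosinophil or mast cell-like class. The LMPP gate, for cells with both Flt3 and Dntt, had 277 CPM (212 to 355) in 27 FMT-young cells and 661 CPM (583 to 747) in 43 FMT-aged cells. In FMT-aged the LMPP gate and the HSC gate did not differ beyond their intervals, and in FMT-young the LMPP gate and the MPP gate did not.

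Levels were lower in the myeloid gates. The early myeloid gate, for Cd34 and Kit cells with Mpo but little Elane, had 52.1 CPM (45.5 to 59.4) in 266 FMT-young cells and 115 CPM (107 to 123) in 471 FMT-aged cells. The GMP gate, for cells with at least 10 UMIs of both Mpo and Elane, had 6.05 CPM in 3207 FMT-young cells and 9.29 CPM in 3093 FMT-aged cells. The pro-B gate, for cells with Vpreb1 and Cd79a, had 94.9 CPM (51.9 to 159) in 11 FMT-young cells, where 1 cell held 10 of the 14 UMIs, and 274 CPM (228 to 325) in 46 FMT-aged cells. In both libraries the pro-B gate lay below the HSC gate, and in FMT-aged it did not differ from the MPP gate beyond the intervals. Monocyte progenitor gate cells had 5.86 CPM and 20.6 CPM, and basophil gate cells had 4.94 CPM from 2 UMIs and 14.4 CPM from 11 UMIs.

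**Figure D3:**
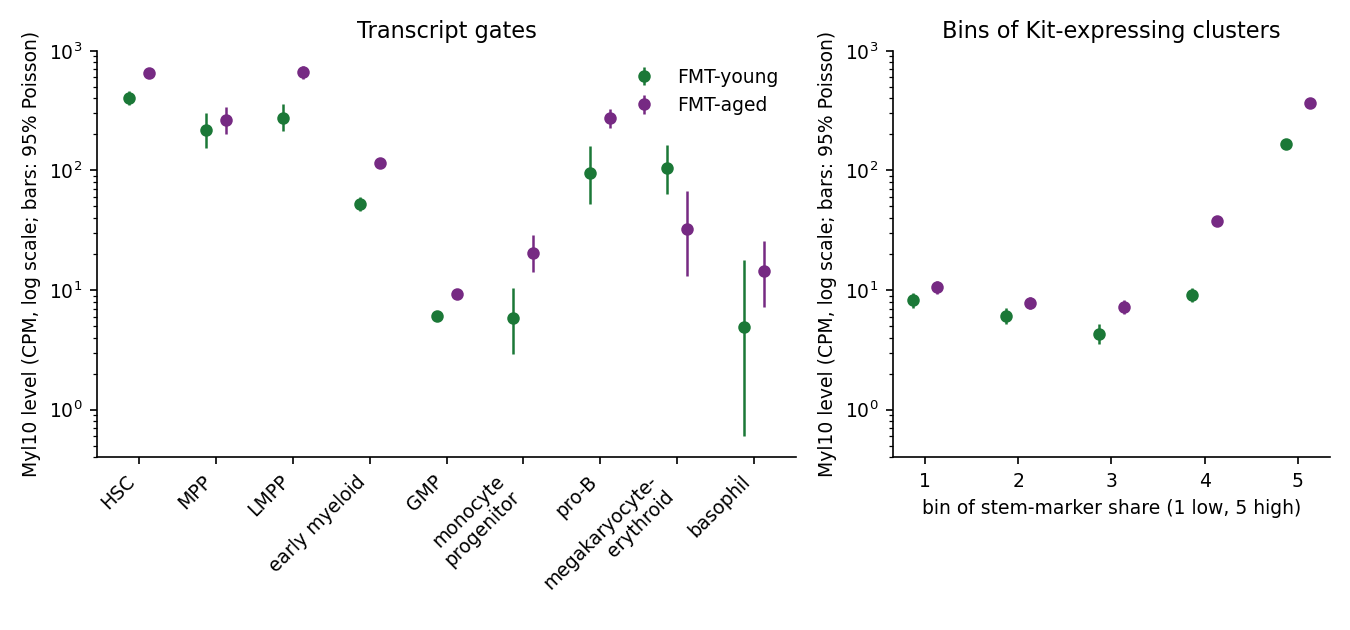
Myl10 level in CPM on a log axis with exact Poisson 95% intervals, in 9 transcript gates (left) and in 5 bins of equal cell number by stem-marker share (right). FMT-young (green) stands left of FMT-aged (purple). The HSC gate lies at 406 and 654 CPM and the GMP gate at 6.05 and 9.29 CPM, and of the bins the highest lies at 166 and 369 CPM.

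The cells of Kit-expressing clusters, without those of T, NK or innate lymphoid-like, conventional dendritic-like and plasma-like clusters, were ranked by their share of stem-marker UMIs. When they were cut into 5 bins of equal size, Myl10 was not graded over the whole range. The 3 lower bins had 8.20, 6.10 and 4.31 CPM in FMT-young and 10.6, 7.84 and 7.25 CPM in FMT-aged. The fourth bin had 9.16 CPM in FMT-young and 37.5 CPM in FMT-aged. The top bin, with at least 13.8 stem-marker UMIs per 10000, had 166 CPM (159 to 174) and 369 CPM (359 to 380), and it held 71.9% of the FMT-young and 73.8% of the FMT-aged Myl10 UMIs.

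The 10 genes whose levels over clusters were most like those of Myl10 were Mecom, Adgrg1, Spns2, Vldlr, Angpt1, Cux1, Myct1, Osbpl1a, Adgrl4 and Hlf. Likeness was the lower of the FMT-young and FMT-aged Pearson correlations of log2(CPM + 1) over 27 clusters with at least 50 cells in each library, and 5815 genes were ranked. The correlations ran from 0.79 for Mecom to 0.72 for Hlf, and the points share library and depth, so they are descriptions. All 10 genes were highest in the stem class in both libraries. Angpt1 encodes a ligand of the receptor Tie2, Adgrg1 and Adgrl4 encode adhesion G protein-coupled receptors, Spns2 a sphingosine-1-phosphate transporter and Vldlr a lipoprotein receptor. Not every stem marker behaved this way: Procr, the endothelial protein C receptor, ranked 468th with a correlation of 0.40, and Ly6a, which encodes Sca-1, ranked 3335th with 0.03.

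One of these genes, Cux1, a homeodomain transcription factor, is also the nearest protein-coding neighbour before Myl10, 125655 bases away on the minus strand. It had 373 CPM in the FMT-young and 383 CPM in the FMT-aged stem class, against 108 and 119 CPM in all other cells, a log2 difference of 1.79 and 1.69. Col26a1, the nearest after it, 40664 bases away, had 0 UMIs in the stem class of either library. Between the libraries, the log2 ratio of Cux1 in the stem class was -0.04 (-0.14 to 0.06).

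Myl10 was lower in FMT-young than in FMT-aged in the stem class. At 394 against 702 CPM, the log2 ratio of FMT-young over FMT-aged was -0.83 (-0.92 to -0.75). Of the 10665 genes of this class with at least 30 UMIs, 7.03% were lower in FMT-young by at least 1.5 fold and 3.46% were higher by as much, and the median gene stood at -0.14. Myl10 was lower than all but 2.23% of them. Among the 1294 genes with at least 1000 UMIs in the class it was the fifth lowest, after Gm42418, which overlaps ribosomal RNA sequence, Lars2, Gm47283 and the histone gene Hist1h2ac, at -1.40, -1.36, -0.97 and -0.93. The median percentage of mitochondrial UMIs in the class was 3.83 in FMT-young and 4.16 in FMT-aged, and its part was not tested.

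The difference was present in both parts of the stem class, at -0.91 (-1.01 to -0.80) in the larger and -0.90 (-1.05 to -0.76) in the smaller. In the HSC gate the ratio was -0.69 (-0.93 to -0.44), where 12.9% of 5424 genes were lower in FMT-young by at least 1.5 fold. In that gate 9.42% of genes had a lower ratio than Myl10, against 2.23% in the stem class. How the class was drawn moved the size: over 17 alternatives the stem class ratio ran from -0.35, when each library was clustered on its own and the classes had 577 FMT-young and 998 FMT-aged cells, to -1.07. It was below 0 in all 17. Besides the share of cells with a UMI given above, the mean number of UMIs per cell with one was also lower in FMT-young, at 3.96 against 6.07 in FMT-aged.

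Of the 14 stem markers, 9 were lower and 5 higher in FMT-young, with a median of -0.09, against -0.14 for all genes, and 1, Fgd5, was lower by at least 1.5 fold, at -0.61 (-1.23 to 0.00), a share near the 7.03% of all genes. The interval lay below 0 for 5 of the 14, among them Esam at -0.57 (-0.92 to -0.22) and Adgrg1 at -0.37 (-0.44 to -0.29), and above 0 for 5, among them Sox4 at 0.29 (0.23 to 0.35). Hlf stood at 0.11 (0.02 to 0.20), Mecom at -0.06 (-0.21 to 0.08) and Procr at -0.14 (-0.39 to 0.12). Of the 10 genes most like Myl10 over clusters, 8 were lower, 5 of them with an interval below 0, and 0 of 10 were lower by that fold, which is near the 7.03% of all genes. Vldlr was lowest at -0.55 (-0.80 to -0.31), and Myct1 was higher at 0.44 (0.30 to 0.59). Gata2, a transcription factor of stem and early myeloid cells, was higher at 0.49 (0.35 to 0.62).

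**Figure D4:**
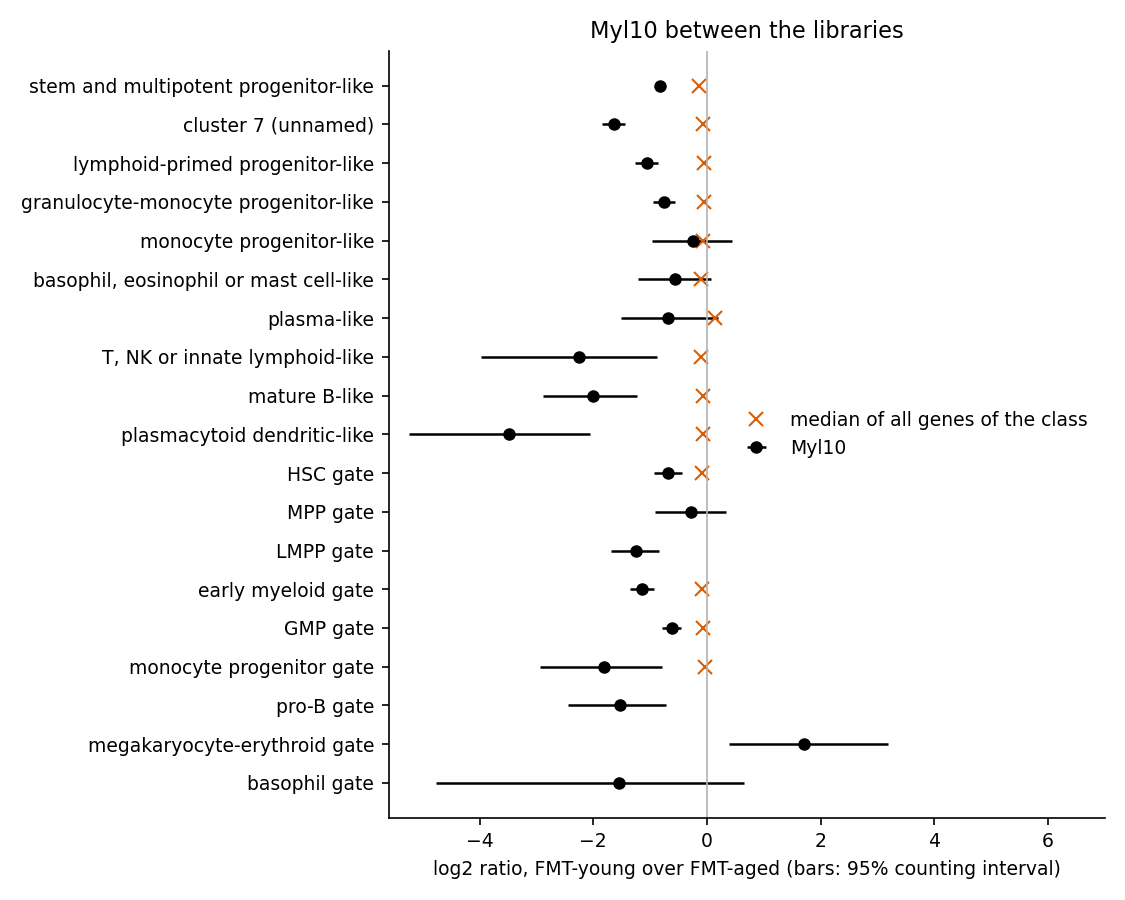
Log2 ratio of Myl10, FMT-young over FMT-aged, with exact 95% counting intervals (black) in 9 named classes, cluster 7 and 9 transcript gates. Orange crosses give the median log2 ratio of all genes with at least 30 UMIs in the same cells, where this was computed. The stem class stands at -0.83, cluster 7 at -1.64 and the megakaryocyte-erythroid gate, with 19 and 7 UMIs, at 1.70.

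Early progenitors also had ratios below 0. Cluster 7, at 38.4 CPM in FMT-young and 120 CPM in FMT-aged, had a log2 ratio of -1.64 (-1.84 to -1.45), and 4.52% of its genes were lower in FMT-young by at least 1.5 fold. The lymphoid-primed class had -1.06 (-1.27 to -0.85), with 3.52% of genes lower by that fold, and it reached -1.73 with Myl10 left out of the clustering genes. The granulocyte-monocyte progenitor-like class had -0.75 (-0.94 to -0.57), with 2.78%. By gates, the ratio was -1.26 (-1.68 to -0.85) in LMPP, -1.14 (-1.36 to -0.93) in early myeloid cells, where 4.74% of genes were lower by that fold, and -0.62 (-0.78 to -0.46) in GMP cells, where 2.75% were. These gates share cells with the stem class, which holds 28 of the LMPP gate cells and 15.2% of early myeloid gate cells. In the MPP gate, with 36 and 60 UMIs, it was -0.28 (-0.91 to 0.34), an interval that includes 0. Along the bins of stem-marker share the ratio was -0.37, -0.36 and -0.75 in the lower 3, -2.03 in the fourth and -1.15 in the top bin.

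Of the 12 other named classes compared, 10 had a ratio below 0. The interval lay below 0 in 5 of them: lymphoid-primed, granulocyte-monocyte progenitor-like, mature B-like at -2.01 (-2.89 to -1.23), plasmacytoid dendritic-like at -3.49 (-5.25 to -2.05) and T, NK or innate lymphoid-like at -2.25 (-3.97 to -0.88). In the last 3 the value rests on the few cells described above. Of genes with at least 30 UMIs, 15.3% were lower by at least 1.5 fold in mature B-like cells. The share was 11.1% in plasmacytoid dendritic-like cells and 6.29% in T, NK or innate lymphoid-like cells. With 5 UMIs in FMT-young and 22 in FMT-aged, Myl10 was itself under that limit in plasmacytoid dendritic-like cells. The plasmacytoid dendritic-like ratio was -1.74 at Leiden resolution 0.5 and -2.04 with classes drawn by marker score. By marker score the ratio was 1.87 (0.49 to 3.41) in mature B-like and 0.64 (-1.16 to 2.49) in T, NK or innate lymphoid-like cells. With each library clustered on its own it was 0.55 (0.06 to 1.00) in granulocyte-monocyte progenitor-like cells, from 728 FMT-young and 2275 FMT-aged cells. The sign also changed in plasma-like cells clustered that way, at 0.65 (-0.30 to 1.71), and by marker score in basophil, eosinophil or mast cell-like cells, at 0.18 (-1.12 to 1.41). In monocyte progenitor-like cells it changed to 1.87 after thinning, which left only 6 Myl10 UMIs in FMT-young and 2 in FMT-aged. The direction in these classes thus depends on how they are drawn or counted, and intervals across 0 leave it unresolved. In plasma-like cells, most of which came from different clusters in FMT-young and FMT-aged, the ratio was -0.68 (-1.51 to 0.20). Monocyte progenitor-like cells had -0.25 (-0.97 to 0.44). The free RNA differed in the same direction, at 18.04 CPM in FMT-young and 41.7 CPM in FMT-aged. Subtracting free RNA at 5% of each class total left the stem class ratio at -0.83, and gave -3.41 in T, NK or innate lymphoid-like, -0.47 in basophil, eosinophil or mast cell-like and 0.12 in plasma-like cells. It left 8 other classes with a value, 7 of them below 0.

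By counting intervals, Myl10 within the stem class was higher in cells with Mecom or Procr. By the same intervals it was lower in cells with Cd34, Cd48, Adgrl4 or Satb1, though not all of these are resolved, as given below. Each cell was thinned to 2000 UMIs and split by whether it still had a UMI of a marker, for 29 of 39 markers with at least 20 cells on both sides in both libraries. Cells with Mecom had 503 CPM of Myl10 in FMT-young against 366 CPM in cells without it, a log2 difference of 0.46 (0.18 to 0.74), and 879 against 711 CPM in FMT-aged, 0.31 (0.12 to 0.50). Cells with Procr had 574 against 385 CPM in FMT-young, 0.58 (0.19 to 0.95), and 951 against 734 CPM in FMT-aged, 0.37 (0.12 to 0.62). These were the 2 markers with a higher level in both libraries by their intervals. The Myl10 counts of thinned stem class cells had a variance of 1.88 times their mean in FMT-young and 1.78 times in FMT-aged. Counting error alone gives a variance equal to the mean, so these intervals understate the spread between cells. Differences whose intervals end near 0 are therefore not resolved. Among them are Cd34 and Adgrl4 in FMT-aged, with intervals ending at -0.02 and -0.05, and Cd48 in FMT-young, ending at -0.06. The split was not made for all genes, so these counts of markers have no background share.

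The 4 markers with a lower level in both libraries included Cd48, a surface protein that the most primitive stem cells lack and many progenitors carry. Its log2 difference was -0.74 (-1.50 to -0.06) in FMT-young, and in FMT-aged it was -0.86 (-1.33 to -0.43), with 433 CPM in cells with Cd48 and 788 CPM in cells without it. For Satb1, a chromatin organiser linked to lymphoid priming, the log2 difference was -0.72 (-1.13 to -0.32) in FMT-young and -0.43 (-0.73 to -0.14) in FMT-aged. For Cd34 it was -0.65 (-0.96 to -0.35) in FMT-young and -0.20 (-0.39 to -0.02) in FMT-aged. Adgrl4 is highest in the same cluster as Myl10, yet inside it the log2 differences were -0.40 (-0.68 to -0.12) in FMT-young and -0.24 (-0.42 to -0.05) in FMT-aged. At 4000 UMIs a cell, 6 markers were higher and 9 lower in both libraries, and these included all 6 named here. Among those added were Hlf, Ly6a and Gata2 as higher and Dntt, Mpo and the cell cycle gene Top2a as lower.

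**Figure D5:**
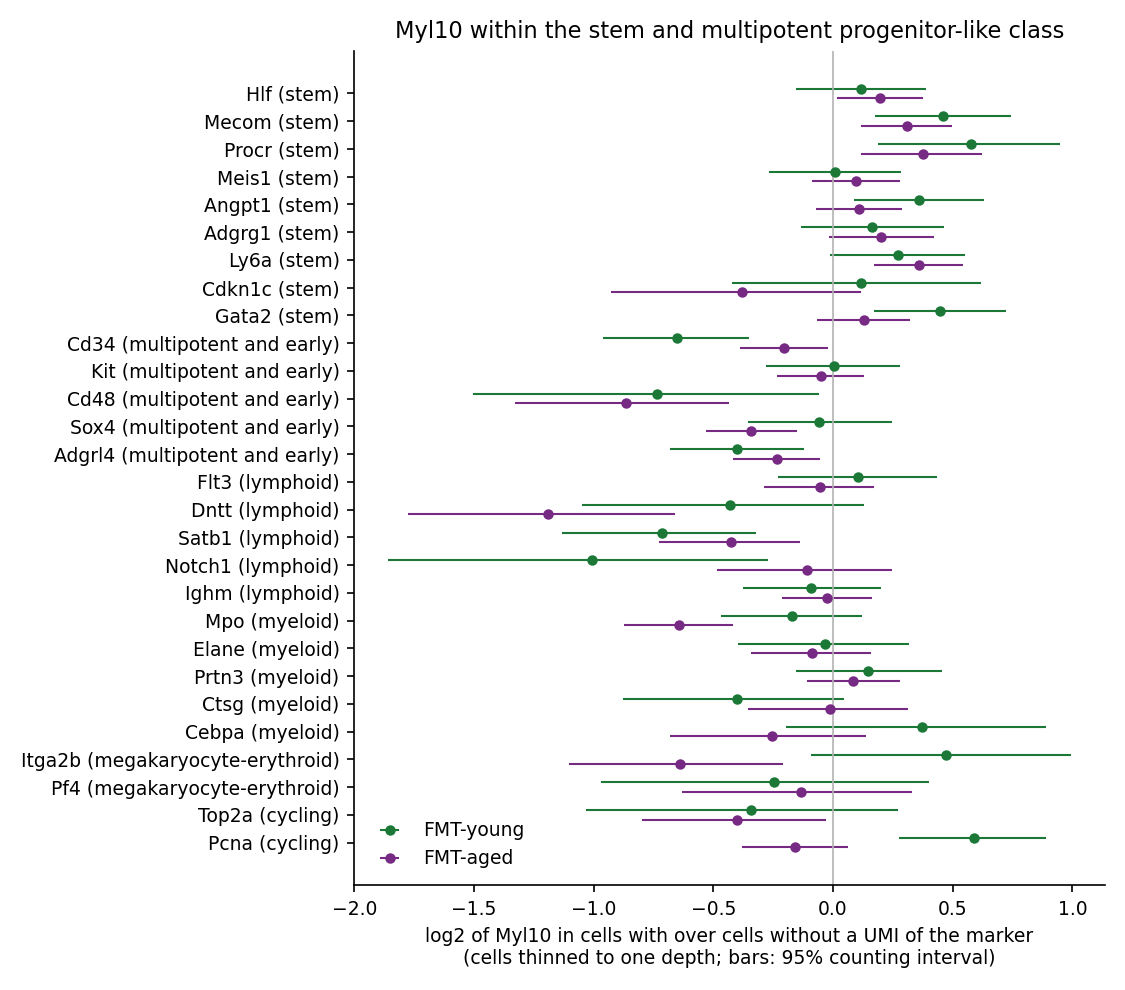
Log2 of the Myl10 level in stem class cells with over cells without a UMI of each marker compared, with 1 of the 29 not shown, after thinning to 2000 UMIs a cell, with 95% counting intervals. FMT-young (green) stands above FMT-aged (purple) in each row. Mecom and Procr lie to the right of 0 and Cd34, Cd48, Adgrl4 and Satb1 to the left in both libraries.

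Cells of the stem class with lymphoid or myeloid markers were not higher in Myl10 in both libraries. Cells with Flt3 had 429.8 against 399 CPM in FMT-young and 737 against 766 CPM in FMT-aged, with intervals across 0. Cells with Dntt had 307 against 414 CPM in FMT-young, -0.43 (-1.05 to 0.13), and 345 against 788 CPM in FMT-aged, -1.19 (-1.78 to -0.66). Mpo gave -0.17 (-0.47 to 0.12) in FMT-young and -0.64 (-0.87 to -0.42) in FMT-aged.

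The other genes of myosin II and its control were examined by role, 41 genes without Myl10, of which 24 had at least 30 UMIs in the stem class. Of these, 15 were lower and 9 higher in FMT-young, 0 were lower by at least 1.5 fold and 3 were higher by as much, with a median of -0.07, against -0.14 for all genes. In this class 7.03% of all genes were lower and 3.46% higher by that fold.

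Of the 3 regulatory light chain genes with at least 30 UMIs in the stem class, Myl10 was higher there than in other cells and Myl12a and Myl12b were lower. Myl12a and Myl12b, the chains of non-muscle myosin in most cells, had 132 and 253 CPM in the FMT-young stem class, against 183 and 351 CPM in the other FMT-young cells. In FMT-aged they had 140 and 286 CPM in the stem class, against 179 and 365 CPM in the others. Their log2 ratios between the libraries were -0.09 (-0.25 to 0.07) and -0.17 (-0.29 to -0.06), against -0.83 for Myl10. The muscle chains Myl9 and Myl7 had 0 UMIs in the stem class of both libraries, Myl2 had 1 in FMT-young and 2 in FMT-aged, and Mylpf, a fast skeletal muscle chain, had 10 in FMT-young and 12 in FMT-aged.

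The essential light chain gene Myl6 was slightly lower in the stem class than elsewhere, by -0.31 on the log2 scale in both libraries. Of the heavy chains Myh9, non-muscle myosin IIA, was present at 225 CPM in the FMT-young and 201 CPM in the FMT-aged stem class, with a ratio of 0.16 (0.04 to 0.29). Myh10, non-muscle myosin IIB, had 3 and 7 UMIs, and Myh14, non-muscle myosin IIC, had 1 in FMT-young and 14 in FMT-aged, both under the 30 UMIs asked for.

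Among the kinases, Mylk, myosin light chain kinase, had 49 UMIs in the stem class of FMT-young and 79 in that of FMT-aged. It stood 4.17 and 4.33 above the other cells on the log2 scale and was highest in the stem class in both libraries, with a ratio between them of -0.40 (-0.95 to 0.13). Cdc42bpa, a kinase of the Cdc42 pathway, also peaked there, 3.90 and 3.37 above the other cells, and its ratio was 0.21 (-0.14 to 0.57). The phosphatase genes Ppp1cb and Ppp1r12a stood at 0.07 and 0.08, with intervals across 0.

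The 3 genes of the list that were higher in FMT-young by at least 1.5 fold were Rhob, Mylip and Cdc42bpb. Rhob, a small GTPase gene, had 986 CPM in the FMT-young and 364 CPM in the FMT-aged stem class, a ratio of 1.44 (1.36 to 1.52). It was also higher in the other cells, at 360 CPM in FMT-young and 163 CPM in FMT-aged. Mylip, a ubiquitin ligase that binds myosin regulatory light chain, had 127 CPM in FMT-young and 51.4 CPM in FMT-aged, 1.31 (1.09 to 1.52), and it too was higher in the other cells, at 62.6 and 22.3 CPM. Cdc42bpb rested on 33 and 23 UMIs, at 0.81 (0.00 to 1.64).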

How the data were processed

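The deposited matrices hold raw UMI counts per gene and barcode, which the authors made with Cell Ranger, version 3.1.0 per the file headers, and mm10 per the submitters' processing notes. Gene and barcode names came from the accompanying deposited lists, whose unit is other. Myl10, the marker lists and the gates were chosen with earlier results of these data known.

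Cells were called as stated above, 11932 in FMT-young and 11351 in FMT-aged, and the highest Scrublet-type doublet scores were removed (0.8% per 1000 called cells, 1139 and 1031 cells). FMT-young and FMT-aged cells were clustered in 1 run from 2000 variable genes, 40 principal components and 20 neighbours, with the Leiden method at resolution 1.0 (leidenalg 0.10.2, Python 3.11.15, SciPy 1.17.1); no batch correction was applied. A cluster took its name from 1 of 18 marker lists: at least 3 markers in 10% of cells at 1.5 times the level elsewhere, and more own markers among the 10 leading genes than of any other type. The treatment of ties was set after the clusters were seen. Monocyte or neutrophil clusters with Kit in at least 20% of cells were called progenitors.

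Myl10 levels are CPM of UMIs summed over a class, with exact Poisson intervals, shares have exact Clopper-Pearson intervals, and log2 ratios have exact conditional binomial intervals. Floors use 3 counts. Ratios and likeness were checked on simulated Poisson counts. These lack the extra spread between cells seen in Myl10, so the check does not cover it. Genes were named by their likeness to Myl10, by membership of the myosin II list and by marker splits. PCR duplicates are removed by UMIs, but cells of 1 library are not replicates. Some items are not reported here. Alternatives are described in the closing section.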

Additional observations from a re-analysis of the deposited data

Results flagged for a closer look

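Myl10 was found in barcodes that no comparison used, above the limit that a count of 0 allows. In barcodes with fewer than 100 UMIs it had 18.04 CPM in FMT-young and 41.7 CPM in FMT-aged, where 3 counts would be 0.366 and 0.390 CPM. In barcodes over the mitochondrial limit it had 12.02 CPM (9.77 to 14.6) from 1704 FMT-young barcodes and 36.9 CPM (33.2 to 40.9) from 2271 FMT-aged barcodes. In cells removed as doublets it had 13.8 CPM (12.7 to 15.02) in FMT-young and 29.5 CPM (27.7 to 31.4) in FMT-aged. The lower level in FMT-young was thus also present in barcodes outside the analysed cells.

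The megakaryocyte-erythroid gate, for cells with Gata1 and Kit and no basophil genes, went the opposite way to the HSC gate. It had 105 CPM (63.4 to 164) in 12 FMT-young cells and 32.4 CPM (13.02 to 66.7) in 22 FMT-aged cells, a log2 ratio of 1.70 (0.39 to 3.19), against -0.69 in the HSC gate. It rests on 19 and 7 UMIs, of which 1 FMT-young cell held 12, and 76.5% of its cells fell in the basophil, eosinophil or mast cell-like class. The difference between the gates was not tested.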

How the results depend on the processing

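No paired analysis was possible because each group has 1 library. The stem class ratio stayed below 0 in 17 of 17 alternatives and the HSC gate ratio in 9 of 9. The FMT-aged level of the stem class moved beyond its counting interval in 15 of 16 alternatives and the FMT-young level in 7 of 16.

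At most 5% mitochondrial UMIs gave a stem class ratio of -0.53, with 547 CPM and 57.6% of thinned cells with a UMI in FMT-aged. At most 20% gave -0.65, 603 CPM and 62.0%. At least 2000 UMIs a cell gave -0.63, 584 CPM and 59.1%. Resolution 2.0 gave -0.64, 594 CPM and 61.2%. Clustering each library on its own gave -0.35, 513 CPM and 56.2%. Without Myl10 among the clustering genes the ratio was -0.67, with 42.1% in FMT-young and 599 CPM in FMT-aged. With immunoglobulin, histone, interferon-response, immediate early and cell cycle genes left out of the clustering genes it was -1.07, with 425 CPM in FMT-young and 890.2 CPM and 74.5% in FMT-aged. Without doublet removal the levels were 285 CPM and 38.6% in FMT-young and 527 CPM and 57.5% in FMT-aged, and at resolution 0.5 they were 180.2 CPM and 30.6%, and 338 CPM and 43.8%. Classes by marker score gave 347 CPM and 42.0% in FMT-young and 613 CPM in FMT-aged.

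Median-of-ratios scaling, which shifts the median of genes by -0.12, gave -0.71 and 673 CPM in FMT-aged, and TMM gave -0.72 and 674 CPM. Means over cells gave 417 CPM in FMT-young and 754 CPM in FMT-aged, thinning gave 419 and 772 CPM, and free RNA subtraction 414 and 737 CPM. Thinning left the HSC gate at -0.44.

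The genes lower in the stem class by the fold numbered 750, and 304 with at least 100 UMIs, 123 past 2 fold, 441 with median-of-ratios scaling and 443 with TMM. By Spearman correlation 6 of the 10 genes most like Myl10 stayed among the first 10. The markers with higher and lower Myl10 in both libraries numbered 2 and 4, against 7 and 16 without thinning and 6 and 9 at 4000 UMIs. The ratio turned to 0.55 in granulocyte-monocyte progenitor-like cells when each library was clustered on its own. By marker score it turned to 0.64 (-1.16 to 2.49) in T, NK or innate lymphoid-like and 1.87 in mature B-like cells. The lymphoid-primed ratio moved in 6 of 13 alternatives, between -1.73 and -1.01, and the plasmacytoid dendritic-like ratio ran from -3.75 to -1.74 over 14. The cause was not tested. The alternatives without shared barcodes and without 4 genes linked to ribosomal RNA, chosen after seeing the data, left the stem class ratio at -0.84 and -0.84. With 1 library per group, differences between animals or preparations cannot be told apart from the transplant.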
